A study of Mus musculus with 4 samples.

Results

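The brain and the pituitary are laid out by transcription factors that are each restricted to a territory, and 41 such genes were followed on 4 arrays of mouse embryos. They were taken from a list of symbols, 41 of the 18193 genes that had a probe set with a single gene symbol, and were ordered by territory. Of these, 15 were placed with the forebrain, 11 with the hypothalamus, eye field and pituitary, and 15 with the midbrain, hindbrain and spinal cord. The arrays held wild-type and Hand2NC embryos (Hand2 CAT/+; Wnt1-Cre) of a mixed C57BL/6J x ICR background, at E11.5, labelled as whole body, and at E12.5, labelled as head. Each of the 4 groups was 1 array of pooled RNA, so no difference below has a replicate check and none has a p-value. In Hand2NC embryos, Cre recombinase driven by Wnt1 removes a stop cassette from a transgene that then drives Hand2 from a broadly active promoter. Wnt1-Cre is known to act in the neural crest and also in the dorsal neural tube, including the midbrain. Wild-type embryos of the same stage were the control. The labels name the whole body at the earlier stage, whereas a legend of the study names heads.

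Most of these factors carry a homeodomain, which binds short AT-rich DNA, and they act in overlapping sets that give each part of the neural tube its identity. Otx2, Six3, Lhx2 and Rax mark the anterior plate, En1, En2 and Gbx2 the midbrain-hindbrain boundary, and Nkx, Dbx and Lhx factors the stripes of progenitors and interneurons in the hindbrain and cord. Pituitary factors such as Hesx1, Lhx3 and Lhx4 act in Rathke's pouch, an outgrowth of the oral ectoderm. Many of the genes have further sites outside the brain, such as Lhx1 in the kidney, Lhx9 in the gonad, Emx2 in the urogenital tract and Zic1 in the somites.

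The values are MAS5 signals, a linear intensity for each probe set, scaled to the same trimmed mean on every array. The median signal of an array lay between 97.2 and 105.8, and a gene was taken as above the filter in a comparison when at least 1 of its arrays reached the median of that array. By this measure 25 of the 41 genes lay at or above the median on all 4 arrays. Another 6, Nr2e1, Six6, Hesx1, En1, Nkx2-2 and Barhl2, did so on some arrays only. The remaining 10 were below it on every array, namely Gsx1, Gsx2, Rax, Vax2, Lhx3, Lhx4, Nkx2-1, Nkx6-2, Dbx2 and Barhl1. Signals below the median are given as measured, but small differences between them can be large ratios. The signals of different probe sets cannot be set against each other, so each gene was compared only between arrays.

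The labels were checked against marker genes. Heart muscle and liver genes were bright on both E11.5 arrays, with 10 of 10 and 8 of 8 genes at or above the median. On the head arrays 5 of the heart and 1 of the liver genes were. Posterior Hox genes, which mark the trunk, went from 11 of 12 genes at or above the median to 1 of 12. The neuron markers were at or above the median on every array, 10 of 10 genes. One Hand2 probe set read 67.1 in wild-type and 314 in Hand2NC embryos at E11.5 and 33.4 and 706 at E12.5, while a brighter one read 1214 and 1244 at E11.5 and 592 and 839 at E12.5. In all such pairs of values wild-type stands before Hand2NC. The Y-linked gene Kdm5d read 578 and 535 on the wild-type and Hand2NC arrays at E11.5, but 677 and 8.72 at E12.5, so the E12.5 pools also differed in Y-linked signal. The part of that difference in the values below was not tested.

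The E12.5 heads were first compared with the E11.5 bodies, once in wild-type and once in Hand2NC embryos. Most of the regional factors had more signal in the head in both genotypes. Among the 25 genes at or above the median on all 4 arrays, 24 were higher in the head in both genotypes, or 96%, against 43.1% of the 10962 genes that met the same condition. The median log2 ratio of head to body over these 25 genes was 0.68 in wild-type and 0.67 in Hand2NC embryos, where all genes had 0.03 and 0.04. The exception was Zic2, a zinc finger factor of the dorsal neural tube, which was lower. Stage and tissue changed together between these arrays and cannot be told apart. In whole tissue, more cells of a type and more RNA per cell cannot be told apart either.

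Without any filter, 31 of the 41 genes were higher in the head in both genotypes (75.6%, against 37.3% of all 18193 genes). The 5 that were lower in both were Hesx1, Lhx4, Nkx2-1, Barhl1 and Zic2, and of these only Zic2 was at or above the median on every array. The remaining 5 differed in sign between the genotypes, namely Gsx1, Lhx3, En1, Nkx6-2 and Dbx2. With the filter, 28 genes could be read in both comparisons and 27 of them were higher by any amount in both genotypes, where 42.9% of 11803 genes were. Zic2 alone was lower, where 35.4% of all genes were. Genes that entered through the head arrays alone, such as Six6, had to be higher there.

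Few of the genes reached 2-fold. At least 2-fold higher in the head in both genotypes were 3 of the 28 genes, Six3, Tbr1 and Lhx2, where 1.91% of all genes were. All 3 were among the 25 genes at or above the median on all arrays (12%, against 1.47% of all such genes). None was at least 2-fold lower in both, where 1.72% of all genes were. With a filter at the 75th percentile in place of the median, Lhx2 was the 1 gene left. The plot of head to body ratios shows the 3 genes past the 2-fold line and the bulk of the others between 0 and that line.

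**Figure D1:**
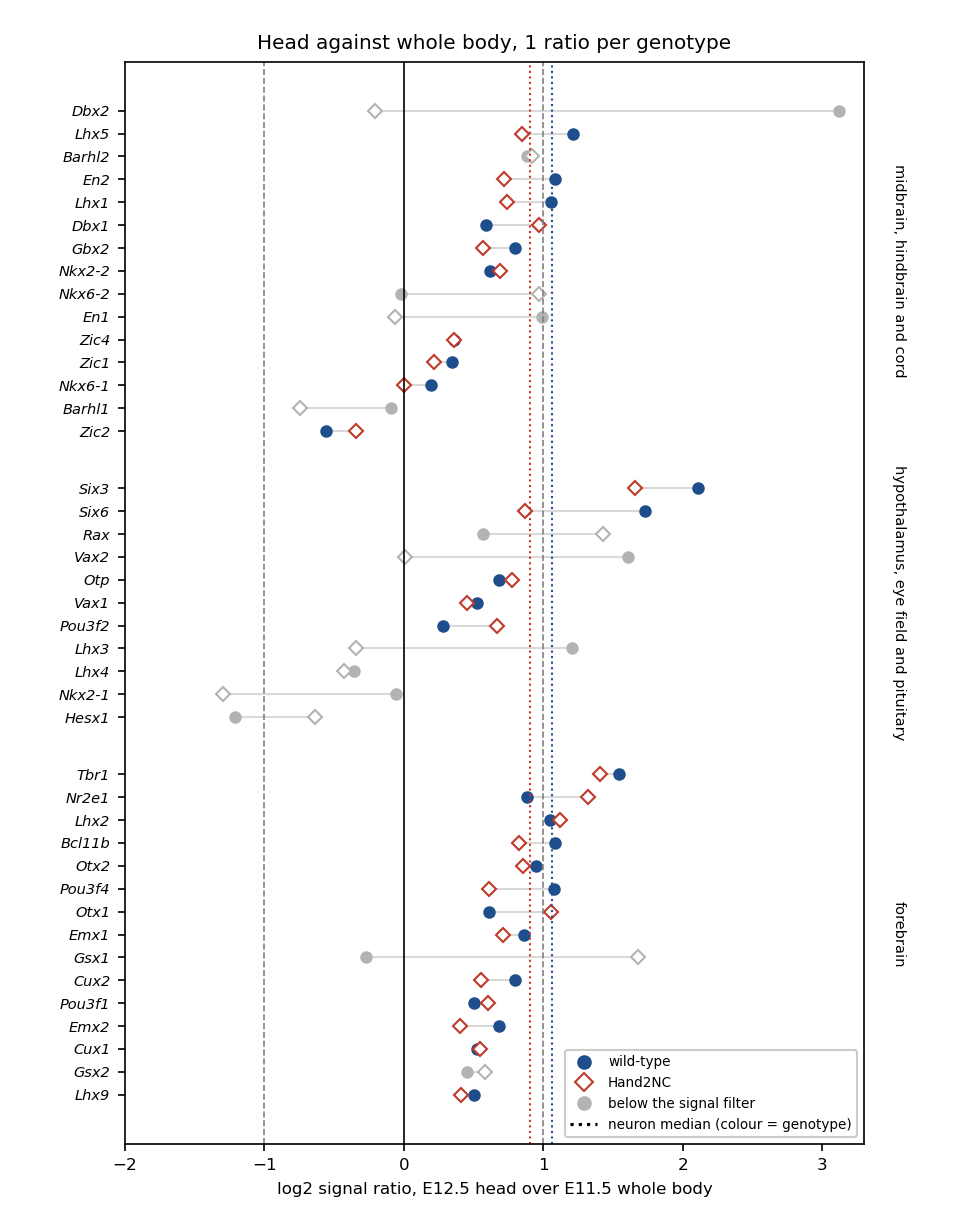
Log2 ratio of the E12.5 head signal over the E11.5 whole-body signal (horizontal axis) for the 41 genes (vertical axis, by territory), with filled circles for wild-type and open diamonds for Hand2NC; grey marks genes below the signal filter, dashed lines 2-fold, and dotted lines the median of 10 neuron markers in each genotype. Six3, Tbr1 and Lhx2 lie past 2-fold in both genotypes, and Zic2 lies left of 0.

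Six3 is needed for the forebrain and the eye and represses posterior signals in the anterior plate. Its signal was 145 in wild-type and 149 in Hand2NC embryos at E11.5, and 625 and 468 in the heads. The head arrays were thus 4.31-fold and 3.15-fold brighter, the largest ratios among the genes at or above the median on all arrays. Tbr1, a T-box factor of newborn glutamatergic neurons of the cortex, read 120 and 139 at E11.5 and 351 and 368 at E12.5, ratios of 2.92-fold and 2.65-fold. Lhx2, a LIM-homeodomain factor of the cortex and the eye field, read 1311 and 1219 at E11.5 and 2711 and 2644 at E12.5, ratios of 2.07-fold and 2.17-fold. In all 3 genes both head arrays lay above both body arrays. Tbr1 and Lhx2 have no other probe set. The other probe sets of Six3 both stayed below the filter, and with all of them averaged its log2 ratio in wild-type was -0.40 in place of 2.11.

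The promoters of these 3 genes are shown because they were the ones past 2-fold in the head, and that of Hesx1 because it alone of the Rathke's pouch factors Hesx1, Lhx3 and Lhx4 had a signal above an array median. They are RefSeq promoters of the GRCm38.p6 build, 250 bases before to 50 bases after the annotated start, all on the plus strand: Six3 at chr17:85620584-85620883, Tbr1 at chr2:61804203-61804502, Lhx2 at chr2:38339031-38339330 and Hesx1 at chr14:27000112-27000411. Capitals mark CANNTG, the E-box bound by basic helix-loop-helix factors such as Hand2, and TAATTA, a homeodomain core. Both were searched on both strands.
Six3: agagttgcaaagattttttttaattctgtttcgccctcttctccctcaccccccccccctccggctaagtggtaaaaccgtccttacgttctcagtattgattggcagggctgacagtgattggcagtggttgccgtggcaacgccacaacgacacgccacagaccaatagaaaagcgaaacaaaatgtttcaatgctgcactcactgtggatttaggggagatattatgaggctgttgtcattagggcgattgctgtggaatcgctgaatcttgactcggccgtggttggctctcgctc
Tbr1: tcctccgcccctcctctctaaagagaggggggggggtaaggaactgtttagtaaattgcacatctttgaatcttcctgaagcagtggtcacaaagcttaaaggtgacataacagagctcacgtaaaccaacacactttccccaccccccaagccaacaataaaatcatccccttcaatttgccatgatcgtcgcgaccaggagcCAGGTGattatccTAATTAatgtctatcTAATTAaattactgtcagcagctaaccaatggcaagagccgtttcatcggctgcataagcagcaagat
Lhx2: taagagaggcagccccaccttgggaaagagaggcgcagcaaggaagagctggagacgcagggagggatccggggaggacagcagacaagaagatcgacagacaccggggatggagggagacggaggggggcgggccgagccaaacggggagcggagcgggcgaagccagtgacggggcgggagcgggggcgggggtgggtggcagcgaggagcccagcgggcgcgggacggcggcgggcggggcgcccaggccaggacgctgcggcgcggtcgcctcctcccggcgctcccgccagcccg
Hesx1: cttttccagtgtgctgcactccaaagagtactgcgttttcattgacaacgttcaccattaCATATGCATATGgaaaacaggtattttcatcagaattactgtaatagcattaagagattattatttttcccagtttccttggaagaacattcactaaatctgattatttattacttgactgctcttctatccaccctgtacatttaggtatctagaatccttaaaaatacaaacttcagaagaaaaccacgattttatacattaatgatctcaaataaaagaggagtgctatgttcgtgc
The Tbr1 promoter held 1 E-box and 2 homeodomain cores, that of Hesx1 held 2 E-boxes next to each other, and those of Six3 and Lhx2 held neither. Of the 41 genes, 34 had a promoter entry, and Lhx5, Otx1, Vax2, Pou3f1, Zic2, En2 and Rax had none. An E-box stood in 22 of the 34 (64.7%), against 72.3% of 32851 promoters. The form CATCTG, which is a kind of CANNTG and overlaps with it in the count, stood in 6 (17.6%, against 17.2%). TAATTA stood in 2, Tbr1 and Emx2 (5.88%, against 5.29%). The shares lay near those of all promoters. The 4 windows differed in base composition, from 33.7% G and C in Hesx1 to 74.7% in Lhx2. A match describes these letters only and is not a binding site.

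The other forebrain genes above the filter were higher in the head without reaching 2-fold in both genotypes. Otx2, which is required to form the forebrain and midbrain, read 783 and 836 at E11.5 and 1509 and 1511 at E12.5. Its paralogue Otx1 read 158 and 112 at E11.5 and 240 and 234 at E12.5, with log2 ratios of 0.61 and 1.06. Emx1 and Emx2, which pattern the dorsal telencephalon, had log2 ratios of 0.86 and 0.68 in wild-type and of 0.71 and 0.40 in Hand2NC embryos. Bcl11b, a zinc finger factor of striatal and deep cortical neurons, read 1820 and 1913 at E11.5 and 3851 and 3387 at E12.5. All 4 of its probe sets were above the filter, and their log2 ratios lay between 0.99 and 1.15 in wild-type and between 0.67 and 1.03 in Hand2NC embryos.

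The POU and Cux factors of the forebrain, which are shared with many neurons elsewhere in the neural tube, had the same direction from their brightest probe sets. Pou3f4 read 212 and 220 at E11.5 and 447 and 336 at E12.5, log2 ratios of 1.08 and 0.61. Pou3f1 had 0.51 and 0.61, Cux1 0.53 and 0.54 and Cux2 0.80 and 0.56. Of the other probe sets of Cux2, 1 had 0.60 and -0.56 and 1 had -1.20 and -0.22. Those of Cux1 above the filter ran from -0.95 to 0.36 in wild-type and from -1.14 to 0.89 in Hand2NC embryos. Lhx9, which is close to Lhx2 in sequence, read 982 and 1072 at E11.5 and 1393 and 1423 at E12.5, and its ratios of 0.51 and 0.41 lay below those of Lhx2 by 0.54 and 0.71. Nr2e1, a nuclear receptor of neural stem cells, was below the array median at E11.5 (78.8 and 66.8) and above it at E12.5 (146 and 167). Gsx1 and Gsx2, which pattern the ventral telencephalon, were dim on all arrays, with 20.5 to 65.5 and 54.2 to 99.9.

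In the hypothalamus and eye field, Six6 had the largest wild-type ratio after Six3 among the genes above the filter. Six6, a homeodomain factor of the optic vesicle and pituitary, read 55.1 and 74.3 at E11.5, below the array medians, and 182 and 136 at E12.5. Its log2 ratios were 1.73 in wild-type and 0.87 in Hand2NC embryos, a difference of -0.86 that was the largest between genotypes among the 28 genes. Six3 differed by -0.45. Otp, which specifies neuroendocrine neurons of the hypothalamus, read 736 and 738 at E11.5 and 1179 and 1267 at E12.5, with nearly equal values in the genotypes at each stage. Vax1, a factor of the optic stalk, had log2 ratios of 0.52 and 0.45. Pou3f2, which acts in neuroendocrine neurons, had 0.28 and 0.67 from its brightest probe set. Of its other probe sets, 1 had 0.34 and 2.10. Another had -1.07 in wild-type and was below the filter in Hand2NC embryos.

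The pituitary and further hypothalamic factors could hardly be read in these tissues. Lhx3 and Lhx4, which act in Rathke's pouch, read 44.7 to 103 and 62.1 to 100, and Nkx2-1, a factor of the ventral hypothalamus, the thyroid and the lung, read 2.39 to 5.88. Rax, required for the eye, read 18.2 to 59.1, and Vax2, which patterns the ventral retina, 12.1 to 75.1. Hesx1, a repressor of the anterior plate and Rathke's pouch, was above the array median in wild-type at E11.5 alone. Its signals were 145 in wild-type and 72.8 in Hand2NC embryos at E11.5, and 62.5 and 46.9 in the heads. Its log2 ratio of head to body in wild-type was -1.21. It passed the filter through the body array alone, which left little room for a higher value in the head.

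**Figure D2:**
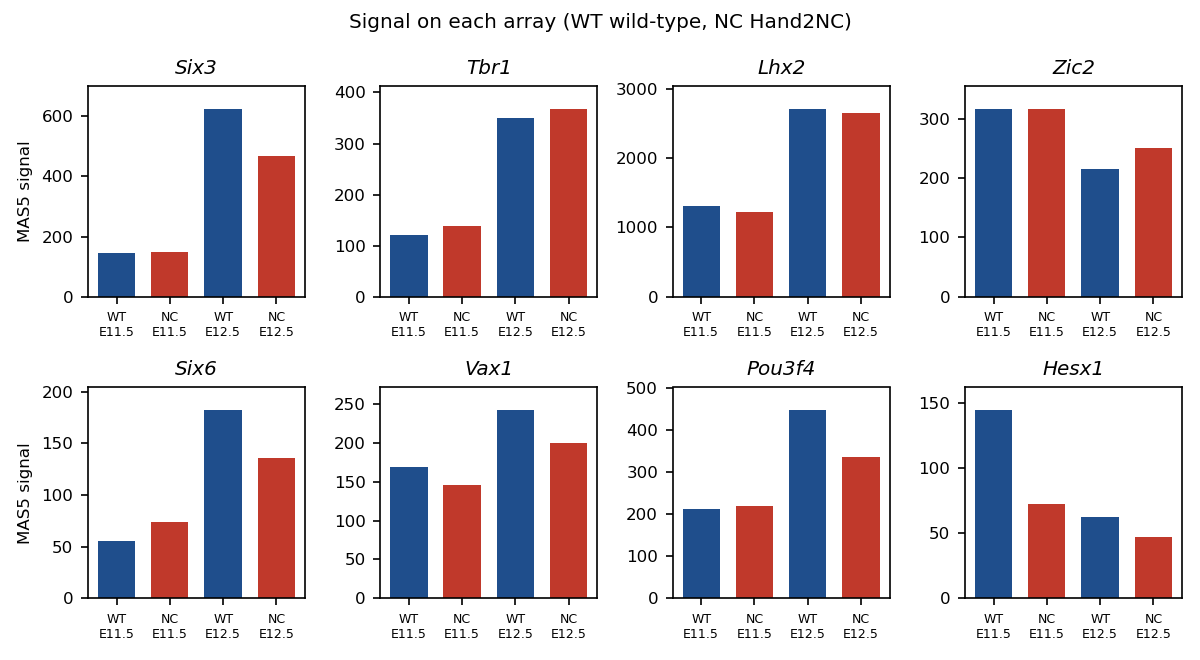
MAS5 signal (vertical axis, linear, from 0) of 8 genes on each of the 4 arrays, 1 bar per array, with wild-type (WT) in blue and Hand2NC (NC) in red. Six3, Tbr1 and Lhx2 are higher on both head arrays, Zic2 is lower on both, and the highest Hesx1 bar is wild-type at E11.5.

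Most midbrain, hindbrain and cord genes above the filter were higher in the head as well. En2, a marker of the midbrain-hindbrain region, read 305 and 371 at E11.5 and 647 and 611 at E12.5, log2 ratios of 1.08 and 0.72. Lhx1, of interneurons and Purkinje cell precursors, read 398 and 404 at E11.5 and 826 and 674 at E12.5. A second probe set of Lhx1 had log2 ratios of 1.71 and 0.92, against 1.06 and 0.74 from the first. Lhx5, its close relative, had 1.21 and 0.85. Gbx2, which sets the anterior limit of the hindbrain, read 127 and 135 at E11.5 and 220 and 201 at E12.5.

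En1 was above the filter in the head to body comparison in wild-type alone. It read 65.8 and 87.7 at E11.5 and 131 and 83.8 at E12.5, so that wild-type alone passed the array median. Its log2 ratio of 0.99 in wild-type had to be above 0, since it passed the filter through the head array alone. The ratio of -0.06 in Hand2NC embryos compares signals below the median, so the 2 ratios show no settled difference between genotypes. Dbx1, of the intermediate neural tube, read 414 and 338 at E11.5 and 621 and 661 at E12.5. Nkx2-2, of the ventral tube, had ratios of 0.62 and 0.69 and was below the array medians at E11.5, whereas Nkx6-1, of the ventral tube and the pancreas, had 0.20 and 0.00. Barhl2 read 70.0 and 41.8 at E11.5 and 129 and 79.2 at E12.5. Nkx6-2, Dbx2 and Barhl1 stayed between 1.01 and 72.0 on all arrays.

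The Zic genes stood toward the low end of the ratios. Zic1 read 6504 and 7005 at E11.5 and 8258 and 8153 at E12.5, with ratios of 0.34 and 0.22. Zic4, which lies next to Zic1 in the opposite direction, had 0.36 in both genotypes. Zic2 read 316 and 317 at E11.5 and 214 and 250 at E12.5, with ratios of -0.56 and -0.34, and both head arrays lay below both body arrays.

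Paralogues were compared pair by pair, since close relatives often share a territory. Of 15 pairs, 8 had both genes above the filter and in 7 of these both genes were higher in the head in both genotypes. The exception was Zic1 with Zic2. Since 27 of the 28 genes above the filter were higher in both genotypes, nearly any pair of them would share this direction. In 4 pairs, Otx1 with Otx2, Emx1 with Emx2, Lhx1 with Lhx5 and Cux1 with Cux2, the ratios lay within 0.5 of each other on the log2 scale in both genotypes. They were farther apart for Lhx2 with Lhx9, Six3 with Six6, Pou3f2 with Pou3f4 and Zic1 with Zic2 in at least 1 genotype. The gap of Six3 over Six6 was 0.38 in wild-type and 0.79 in Hand2NC embryos. Pairs of unrelated genes were not compared, so whether paralogues lay closer than other genes was not tested.

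Signal of nervous tissue as a whole was also higher in the head. The 10 neuron markers had a median log2 ratio of 1.07 in wild-type and 0.91 in Hand2NC embryos, and their summed signal went from 27354 and 27123 at E11.5 to 51710 and 46632 at E12.5. The 8 neural progenitor markers had medians of 0.47 and 0.44. Of the 28 regional genes above the filter in both comparisons, Six3 and Tbr1 alone exceeded the neuron median in both genotypes. A further 9 did so in 1 genotype. Among the 9, Six6 and Nr2e1 passed the filter through the head arrays alone and so had to be higher there. The share of all genes past the neuron median was not counted. Erythroid genes went the other way, with medians of -1.42 and -1.41. The part of the share of nervous tissue in the ratios of the regional genes was not tested.

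Other regional genes, not among the 41, differed by territory. All 12 further forebrain genes analysed here were higher in the head in both genotypes, where 42.9% of all genes were. One of them, Fezf1, was below the array medians at E11.5 (85.5 and 86.8). It passed the filter through the head arrays alone and so had to be higher there. Pax6, Fezf1, Fezf2, Dlx1 and Dlx2 were at least 2-fold higher in both, where 1.91% of all genes were. The median log2 ratio of the 12 was 0.93 in wild-type and 0.98 in Hand2NC embryos. Dlx1, of ventral forebrain interneurons but also of the branchial arches, had the largest ratios, 1.63 and 1.61. Of 11 further hypothalamic and pituitary genes, 6 were above the filter with medians of 0.28 and 0.31, and none reached 2-fold in both. Of 16 further midbrain, hindbrain and cord genes, most were dim, and none of those above the filter reached 2-fold in both. The plot of all lists shows the regional groups beside the tissue markers.

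**Figure D3:**
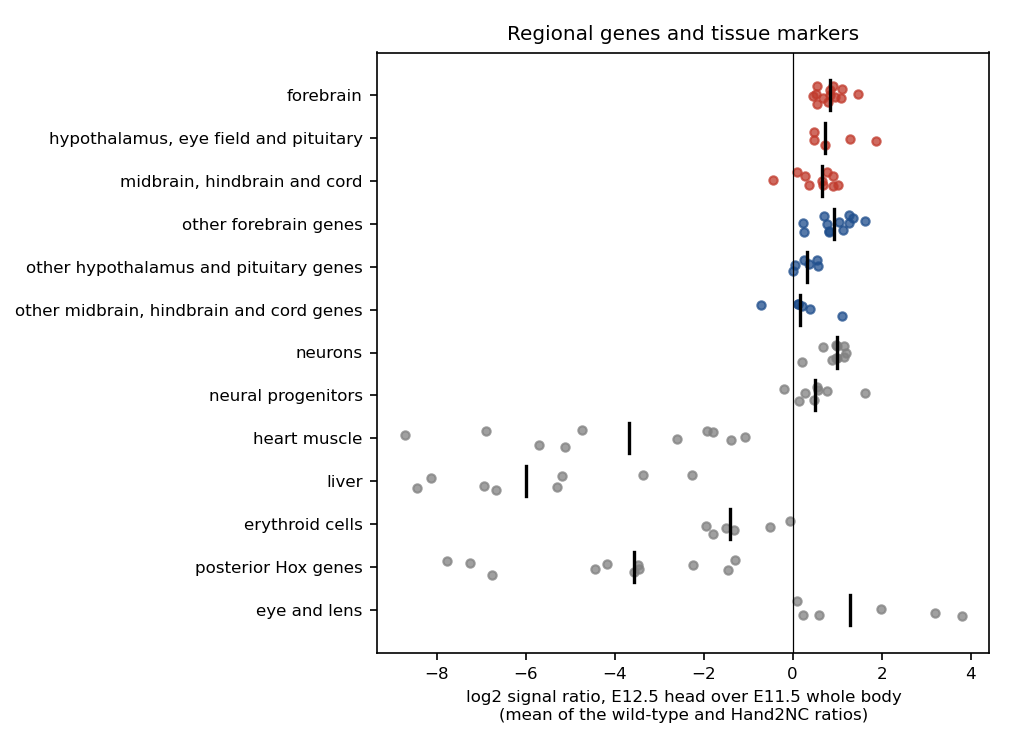
Log2 ratio of E12.5 head over E11.5 whole body, averaged over the wild-type and Hand2NC ratios (horizontal axis), for the genes of each list that were above the signal filter (points) with the list's median (black bar). The 3 regional groups (red) lie mostly between 0 and 2, beside the neuron markers, whereas heart muscle, liver and posterior Hox genes lie below 0.

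Hand2NC and wild-type embryos were then compared at each stage. No regional gene above the filter reached a 2-fold difference at either stage. At E11.5 0 of 26 did, where 0.446% of 11886 genes did, and at E12.5 0 of 30 did, where 0.398% of 11815 genes did. A finer yardstick was the local spread, the robust standard deviation of the log2 ratio over the 500 genes nearest in mean signal. It holds measurement error and real differences together and is no replicate error.

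At E11.5, 3 genes were higher in Hand2NC by more than the local spread, where 16.2% of all genes were, and 4 were lower, where 17.4% were. Over the 25 genes at or above the median on all arrays, 3 were higher (12%) and 3 lower (12%), against 16.0% and 17.2% of all genes that met that condition. These shares lay near those of all genes. Their median log2 ratio was 0.06, where all genes had -0.01.

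Hesx1 passed the filter at E11.5 through the wild-type array alone, which left little room for a higher value in Hand2NC embryos. Its signals of 145 in wild-type and 72.8 in Hand2NC embryos differed 1.99-fold, a log2 ratio of -0.99 with a local spread of 0.44. Since 72.8 lies below the array median, the size depends on how dim signals are treated, and with dim values raised to the median the ratio was -0.52. With median centring or quantile normalization the ratio passed 2-fold, at -1.05. At E12.5 Hesx1 was below the filter.

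Otx1 was lower as well, with 158 in wild-type and 112 in Hand2NC embryos, a log2 ratio of -0.49 with a local spread of 0.27. Its paralogue Otx2 had 0.10. Dbx1 had a ratio of -0.29, and the highest among the genes above the filter was Nkx6-1 at 0.41, with 115 and 153. En2 had 0.28. Cux2 had 0.28 from its brightest probe set, but 0.79 and -1.17 from its other probe sets, and Pou3f2 had -0.07 from its brightest and -1.73 and -2.21 from the others, so neither gene has a settled direction at E11.5. Nor has Cux1, with -0.16 from its brightest probe set and between -0.72 and 0.41 from the others above the filter. Of 8 neural progenitor markers, 5 were higher in Hand2NC at this stage by more than the local spread, where 16.2% of all genes were. Nes, an intermediate filament gene, had the largest ratio, 0.90, from the brightest of its 3 probe sets. Msi1, Fabp7 and Vim had 0.04, -0.04 and -0.07.

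At E12.5, 2 genes were higher in Hand2NC heads by more than the local spread, where 17.0% of all genes were, and 9 were lower, where 16.4% were. The balance moved with the scaling, to 4 higher and 6 lower with median centring and 3 higher and 7 lower with quantile normalization. Over the 25 genes at or above the median on all arrays, 6 were lower (24%, against 15.7%) and 2 were higher (8%, against 16.8%). The 9 were Six3, Six6, Vax1, Pou3f4, Emx1, Bcl11b, Lhx1, En1 and Barhl2. The median log2 ratio of the 25 genes was -0.04, where all genes had 0.00, so the group as a whole lay near 0.

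Of the 5 hypothalamus, eye field and pituitary genes above the filter at E12.5, 3 were lower in Hand2NC by more than the local spread. Of all genes 16.4% were, as were 3 of 13 forebrain genes and 3 of 12 midbrain, hindbrain and cord genes. A count over 5 genes cannot set this territory apart. Of the 5, Otp (0.10) and Pou3f2 (0.32) went the other way, and the anterior genes Otx2 and Lhx2 had 0.00 and -0.04. Six3 read 625 in wild-type and 468 in Hand2NC heads, a log2 ratio of -0.42 with a local spread of 0.23. Six6 read 182 and 136, also -0.42, with a local spread of 0.38. Vax1 read 242 and 200, a ratio of -0.28 with a local spread of 0.26. With its probe sets averaged, the ratio of Six3 was 0.090. At E11.5 Six3 had a log2 ratio of 0.03 and Six6, then below the filter, 0.43.

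Forebrain genes with lower values were Pou3f4, Emx1 and Bcl11b. Pou3f4 read 447 and 336, a log2 ratio of -0.41 with a local spread of 0.24, and its other probe set had -0.13. Pou3f4 lies on the X chromosome, and the arrays of this stage also differed in Xist, the X inactivation transcript, with 8988 in wild-type and 16187 in Hand2NC heads. Emx1 had -0.31, but 0.24 with its dim second probe set averaged in, and Bcl11b had -0.18 from its brightest probe set and between -0.56 and -0.16 over all 4. Further back, Lhx1 had -0.29 from each of its probe sets, En1 -0.64 with 131 and 83.8, and Barhl2 -0.70 with 129 and 79.2. En1 and Barhl2 reached the array median in wild-type heads alone and so passed the filter through the array on which they were higher, which fixed their direction. With dim values raised to the median their ratios were -0.36 and -0.34.

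The genes with higher values were Pou3f1, at 0.22, and Pou3f2, at 0.32 with 222 and 277. A second probe set above the filter read 0.19 for Pou3f1 and 0.03 for Pou3f2. Otx1, Otx2, Lhx2, Lhx9, Cux2, Zic1 and Zic4 had ratios between -0.04 and 0.04 at this stage from their brightest probe sets, each within its local spread. Other probe sets above the filter read -0.79 for Zic4, -0.37 and -0.18 for Cux2, and 0.14 and -0.19 for Lhx9. Of 25 genes above the filter at both stages, 0 were beyond the local spread in the same direction at both and 0 in opposite directions. The share of all genes beyond it at both stages was not counted. These counts therefore show neither agreement nor a lack of it between the stages. The plot of genotype ratios shows the values of each gene.

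**Figure D4:**
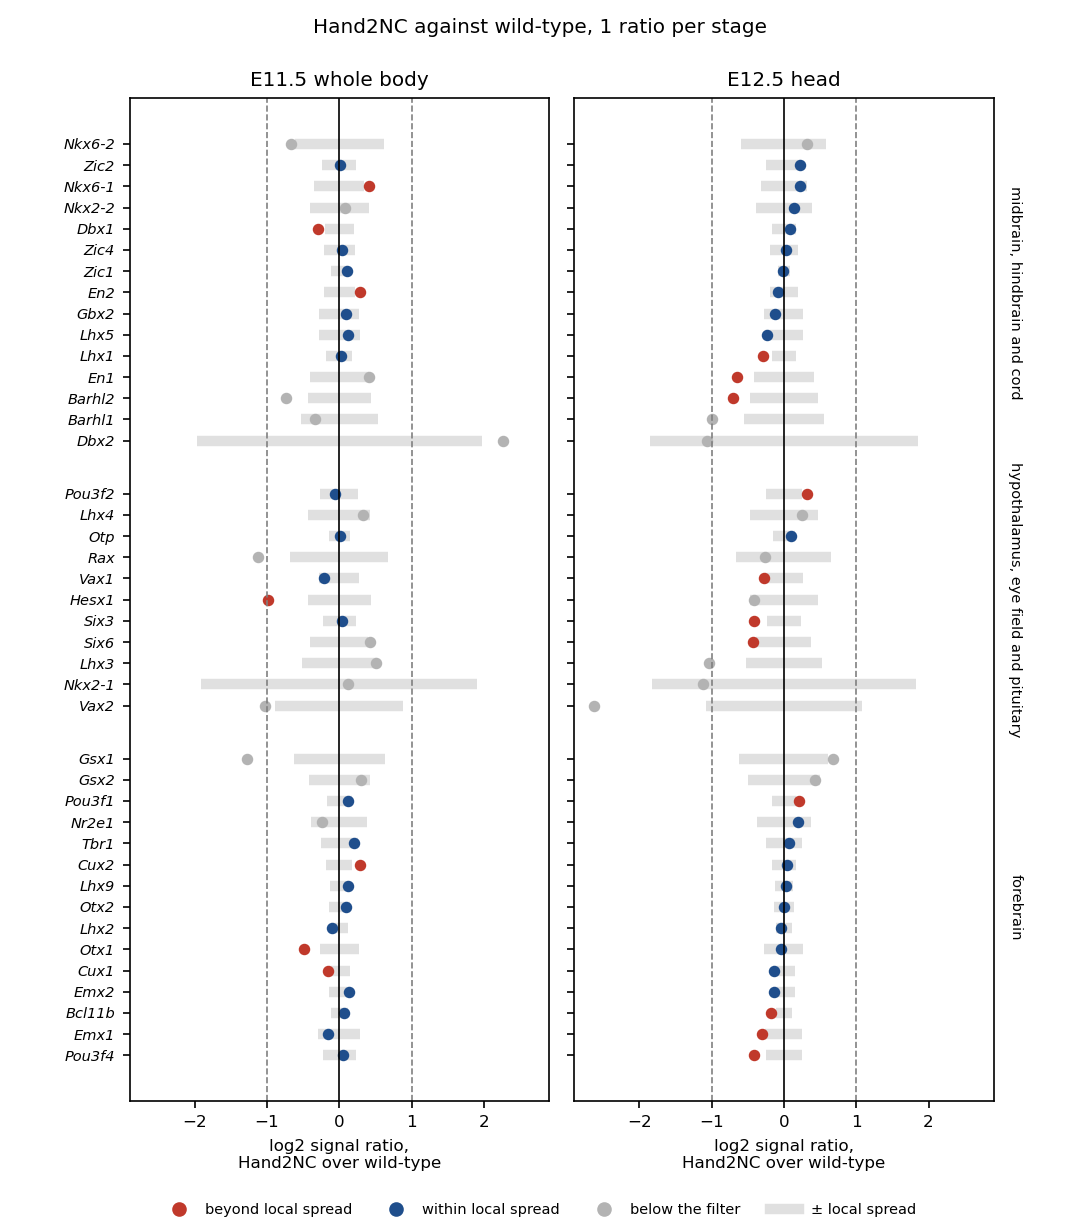
Log2 ratio of Hand2NC over wild-type (horizontal axis) at E11.5 (left) and E12.5 (right) for the 41 genes (vertical axis, by territory); grey bars span plus and minus the local spread, and red, blue and grey points are genes beyond it, within it and below the signal filter. No gene above the filter lies past the dashed 2-fold lines, and at E12.5 there are 9 red points left of 0 and 2 right of it.

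General neuron markers were slightly lower in the Hand2NC head as well. All 10 had log2 ratios below 0 at E12.5, where 5797 of 11815 genes did. Their median was -0.15, with a range from -0.24 to -0.08. For 8 of them the difference was beyond the local spread, where 16.4% of all genes were lower by that much. Their median at E11.5 was 0.01. The progenitor markers had a median of 0.01 at E12.5, and 10 of 12 further forebrain genes lay below 0, with a median of -0.11. The part of neuron content in the lower values was not tested. Among the further pituitary genes, Pitx1, which acts in Rathke's pouch and also in the mandibular arch, was higher in the Hand2NC head at 0.85, with 323 and 581.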

How the data were processed

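Gene expression was measured on Affymetrix mouse genome arrays of type 430 2.0, 1 array for each of 4 groups, from RNA that the study pooled before labelling. For each probe set the authors deposited a linear MAS5 intensity, with no detection calls. The submitters' processing notes give MAS5 with no version. No genome build enters these values. All columns matched a sample. The number of arrays limits the precision, and no p-value was computed.

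Of 45101 probe sets, 64 controls were left out. Of the other 45037, 34945 have 1 gene symbol in the platform annotation, 932 have several and 9160 none, and the last 2 kinds were not used. RefSeq listed the gene identifiers of 34741, and this changed 0 symbols. Signals were multiplied so that every array had a 2% trimmed mean of 500. Where a gene had several probe sets, the brightest by mean log2 signal across the 4 arrays was read. It was kept in a comparison when either array reached its own median (50th percentile), for the head against body comparison in both genotypes. Differences are log2 ratios, counted when at least 2-fold or beyond the local spread over 500 genes. The counting was tested on simulated data.

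Members, groups, marker lists and tests were chosen with earlier results of these data known. All members are accounted for. Values on all arrays are given for genes past 2-fold in the head in both genotypes, for the largest genotype differences and for paralogues. Those of other members were chosen after their values were seen, as was the count of genes higher or lower by any amount. Of the other lists, the genes with the largest changes may be named. Some listed genes are not reported here. Promoter sequences and motif counts come from a RefSeq promoter table (GRCm38.p6).

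The alternatives were unscaled values, median centring, quantile normalization, a loess fit (span 0.3), no filter, a 75th percentile filter, all arrays of a comparison at or above the median, dim values raised to the median, the mean over probe sets, a call from any probe set, and dropping probe sets whose names mark binding to several transcripts. Tables were handled with pandas 2.3.3 and numpy 2.4.6 under Python 3.11.15, figures with matplotlib 3.10.9, and the loess fit with statsmodels 0.14.6. The trimmed means used scipy 1.17.1.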

Additional observations from a re-analysis of the deposited data

Results flagged for a closer look

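Nr2f1 and Nr2f2 are nuclear receptors that pattern the forebrain. They were flagged because their genotype differences pointed in opposite ways at E11.5 and E12.5, each beyond the local spread. The log2 ratio of Hand2NC over wild-type for Nr2f1 was 0.215 at E11.5 and -0.203 at E12.5. For Nr2f2 it was 0.244 at E11.5 and -0.169 at E12.5, from the brightest of its 6 probe sets. The pattern was not particular to these genes. Among the marker genes, Elavl4, Ina and Slc1a3 were also higher at E11.5 and lower at E12.5, each beyond the local spread. Hbb-bh1 went the reverse way, with -0.17 and 0.09. The share of all genes with such a pattern was not counted. With 1 array per group the difference between the stages was not tested, and stage and tissue cannot be told apart.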

How the results depend on the processing

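Of the summary counts and medians under the alternatives, 110 stayed within 1.5 times the reported count or 0.1 of the reported median, and 29 did not. Of the values of single genes, 233 stayed within the local spread of the reported genotype ratio or within 0.5 of the head ratio (log2), 3 moved farther with the same sign and 4 turned their sign. The 3 were Hesx1 at E11.5 with dim values raised (-0.52) and, with the mean over probe sets, Bcl11b (-0.30) and Vax1 (-1.31) at E12.5. Within the spread, but by over 1.5 times, moved En1 (-0.36) and Barhl2 (-0.34) with dim values raised and Pou3f4 (-0.27) with the mean over probe sets, all at E12.5. The counts reported were 3 genes at least 2-fold higher in the head, 27 higher by any amount, 0 past 2-fold between genotypes at either stage, 3 higher and 4 lower beyond the local spread at E11.5, and 2 higher and 9 lower at E12.5. The median log2 ratio of head to body over the genes above the filter was 0.80 in wild-type and 0.70 in Hand2NC embryos. The wild-type median was 0.67 with median centring, quantile normalization or a loess fit, 0.68 without a filter or with all arrays of a comparison at or above the median, 0.61 with dim values raised to the median and 0.65 with the mean over probe sets. The Hand2NC median was 0.60 with the loess fit. Median centring moved the median of all genes in the wild-type head to body ratio from 0.01 to -0.12, and Lhx2 then stood at 0.93 in wild-type. Hesx1 made 1 gene past 2-fold at E11.5 with median centring or quantile normalization.

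Without a filter 4 genes passed 2-fold at E11.5 (Gsx1, Rax and Vax2 lower, Dbx2 higher) and 4 at E12.5 (Vax2, Lhx3, Nkx2-1 and Dbx2, all lower), all dim on every array, and 6 were higher and 9 lower beyond the local spread at E11.5. With the 75th percentile filter, which tests fewer genes, 1 gene was at least 2-fold higher in the head and 13 were higher by any amount. At E11.5 it left 0 higher and 1 lower beyond the local spread, and at E12.5 1 higher and 3 lower. At E12.5, 4 were higher and 6 lower with median centring, 3 higher and 7 lower with quantile normalization, and 4 higher and 9 lower with dim values raised. Averaging probe sets, which brings in dim ones, gave 2 genes past 2-fold at E11.5 (Otp and Pou3f2), 7 lower beyond the local spread at E11.5 and 0 higher at E12.5. It turned the sign of Emx1 at E12.5 (0.24), Cux2 at E11.5 (-0.033), and Six3 in the wild-type head to body ratio (-0.40) and at E12.5 (0.090). A call from any probe set gave 2 genes past 2-fold at E11.5 (Cux2 and Pou3f2), 7 higher and 8 lower beyond the local spread there, and 1 gene past 2-fold at E12.5 (Cux1). Of the other probe sets of the 41 genes, 14 of 18 above the filter had the same sign as the brightest in the wild-type head to body ratio, and 10 of 18 at each stage between genotypes. The median genotype ratio at E12.5 lay between -0.08 and 0.02 over these settings. Where no construction is named, the cause was not tested. No replicate could be left out and no paired analysis was possible because each group has 1 array.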
